A study of Caenorhabditis remanei with 28 samples.

Results

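The 80 genes described here were chosen from measured levels for their high means in both stress-selected populations of the nematode Caenorhabditis remanei. Those means were set against control and ancestor means, without regard to the spread among libraries. The genes are 80 of 25337 gene identifiers. Poly-A RNA of pooled larvae at L1, the first larval stage, had been sequenced in 28 libraries of 4 populations. The heat-selected population (8 libraries), the oxidative-selected population (6 libraries, replicates 1 to 6) and the control-selected population (8 libraries) were all derived from strain PX443, which is the ancestor (6 libraries, replicates 3 to 8). All were kept on E. coli at 20 °C, bleached embryos spent 20 h in buffer without food, and about 100000 filtered larvae were frozen per replicate. The series text places every population at 20 °C, the titles give that temperature only for control and ancestor libraries, and the shared protocol also names a warmer incubation.

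Each selection regime was represented by 1 population, so a difference between populations cannot be told apart from drift. Nothing in the labels tells separate cultures from repeat libraries of 1 culture, so p-values rest on a spread that may be technical. Larvae were pooled, so more cells of a type and more RNA per cell cannot be told apart.

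Hatching without food holds nematode larvae in L1 arrest, a state that is itself resistant to stress. In C. elegans, heat shock factor HSF-1 raises chaperone genes in response to unfolded protein. SKN-1 there raises glutathione and antioxidant genes in response to oxidants, and the insulin pathway acts on stress resistance through DAF-16. Genes of shared stress resistance could be looked for among those raised in both selected populations. The identifiers in the files are not paired with gene names, however, and 0 of 25337 matched the RefSeq gene table of the species, so no gene below is given a function, a position or a sequence, and the larval stage and tissues could not be checked against marker genes.

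The selection used replicates 1 to 6 of the heat, oxidative and control populations and replicates 3 to 6 of the ancestor. Levels were counts scaled to the gene total of each library (CPM). A gene was ranked when its mean was at least 5 CPM in heat and in oxidative larvae, when the oxidative mean was under 2 times the heat mean, and when the mean of heat replicates 3 to 6 was under 2 times that of heat replicates 1 and 2. These limits left 8258 genes. The score was the smallest of 4 log2 ratios, heat and oxidative each over control and ancestor, with 1 CPM added to each mean, and the 80 highest scores were taken. Replicates 7 and 8 of the heat, control and ancestor populations played no part in it. They are the libraries in which the genes could be tested, and there are none of the oxidative population.

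The scores ran from 1.13 for FL81_02997 down to 0.4136 for FL81_19757, ranked 80, and 0.4139 for FL81_01961, ranked 79. Just outside stood FL81_04573 at 0.4120 and FL81_01977 at 0.4119, so the border is not a gap. FL81_19757 averaged 7.32 CPM in heat, 6.21 in oxidative, 4.41 in control and 3.89 CPM in ancestor larvae. FL81_04573, the next gene, averaged 11.97 CPM in heat, 13.98 in oxidative, 8.47 in control and 8.75 CPM in ancestor larvae. FL81_01961 averaged 494 CPM in heat, 431 in oxidative, 323 in control and 310 CPM in ancestor larvae, and FL81_01977, outside, averaged 323 CPM in heat, 273 in oxidative, 205 in control and 197 CPM in ancestor larvae. Heat over ancestor was the smallest of the 4 ratios for 33 genes, oxidative over ancestor for 17, oxidative over control for 15 and heat over control for 15.

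All levels from here on are normalised CPM, in which library sizes were also scaled by TMM (trimmed mean of M-values). The TMM factors were between 0.698 and 1.46. The 80 genes covered a wide range of abundance. Their means lay between 4.63 and 566 normalised CPM in heat replicates 1 to 6 (median 30.0) and between 4.74 and 556 in oxidative libraries (median 33.2). In control replicates 1 to 6 they lay between 1.66 and 314 (median 16.7), and in ancestor replicates 3 to 6 between 1.55 and 319 (median 19.8). Each library held at least 2 counts of every one of the 80, and 62 genes had 10 or more counts in all 28 libraries. All 80 passed the filter on low counts and were tested.

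The summed level of the 80 genes was 4540 to 6442 normalised CPM in heat replicates 1 to 6 (median 5997, n = 6) and 5316 to 5743 in oxidative libraries (median 5585, n = 6). It was 2942 to 3313 in control replicates 1 to 6 (median 3114, n = 6), and 3437, 3522, 3571 and 3614 in ancestor replicates 3 to 6. The heat and oxidative ranges lay above the other ranges and close to each other, both of which the rule favours: it scored the smallest ratio and held the oxidative mean under 2 times the heat mean in these libraries. Heat replicates 1 and 2, at 4540 and 4627, lay below heat replicates 3 to 6, at 5984 to 6442. This step was in the sum, not in the median gene. The median ratio of heat replicates 3 to 6 over replicates 1 and 2 was 1.00 among the 80. In plain CPM the sums overlapped, with 6617 and 5175 in heat replicates 1 and 2 and 5472 to 6508 in replicates 3 to 6. The rule also limited this ratio in single genes. The median gene stood 0.50 to 0.72 log2 units above the mean of control and ancestor replicates 1 to 6 in the 6 heat libraries and 0.66 to 0.82 above it in the 6 oxidative libraries.

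**Figure D1:**
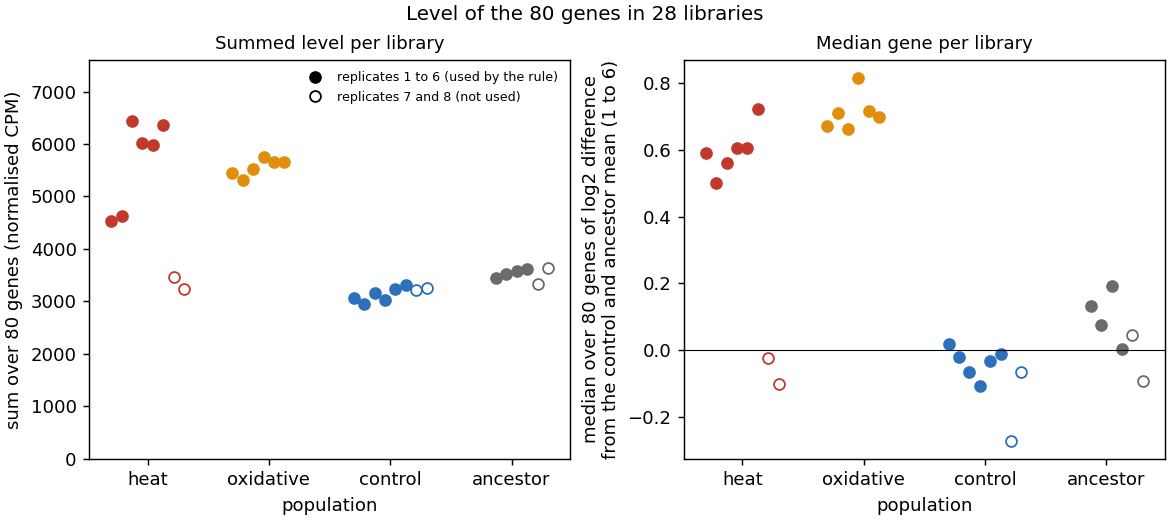
Level of the 80 genes in each library by population, as the sum of normalised CPM (left) and as the median log2 difference from the mean of control and ancestor replicates 1 to 6 (right, 1 CPM added). Filled points are libraries the choice of genes used and open points replicates 7 and 8; the open heat points, at 3470 and 3238, lie among the control and ancestor points.

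In heat replicates 7 and 8 the genes were not at the heat level of replicates 1 to 6. Their summed level was 3470 and 3238 normalised CPM in these heat libraries, against 3208 and 3245 in control replicates 7 and 8 and 3337 and 3639 in ancestor replicates 7 and 8. The heat values lay inside the range of the other 4. The median gene stood at -0.02 and -0.10 log2 units from the mean of control and ancestor replicates 1 to 6 in heat replicates 7 and 8. It stood at -0.27 and -0.07 in control and at 0.05 and -0.09 in ancestor replicates 7 and 8. In plain CPM the summed levels were 2835 and 2765 in heat, 2238 and 2582 in control, and 3443 and 2814 in ancestor replicates 7 and 8, which gives the same overlap with the ancestor but places both heat libraries above both control libraries.

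Heat larvae were tested against control larvae in replicates 7 and 8 to ask whether the genes were also higher in libraries that had not chosen them. None of the 80 passed the threshold (edgeR's quasi-likelihood F test, adjusted p under 0.05 by Benjamini-Hochberg over 11952 genes, n = 2 and 2). The background was nearly as low, at 0.00837% of all genes tested, so this count says little by itself. At an unadjusted p under 0.05, 9 of the 80 were higher in heat larvae, against a background of 2.28%, and 1 was lower, against 1.36%. The count of 9 was 5 when only the 6 libraries were fitted, and it was also smaller without heat replicate 7 or control replicate 7. The share over all genes was not counted in those fits, so a loss in the 80 cannot be told from a loss of power. DESeq2 and limma-voom also called 0 of the 80. The median log2 fold change was 0.18 (quartiles -0.08 and 0.46) with 56 of 80 genes above 0, beside a median of -0.01 and 48.8% above 0 over all genes tested. That median was 0.0689 without heat replicate 7 and 0.0757 without control replicate 7. In the replicates that chose the genes, where the fold changes are a description, the median was 0.67 and all 80 were above 0. The upper 95% bound of the fold change in replicates 7 and 8 lay under 1 log2 unit for 51 genes. That limit is above the 0.67 of the replicates that chose the genes, so it does not exclude a change of that size. The same count over all genes tested was not made. The median standard error was 0.35.

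Against the ancestor, the median gene was not higher in replicates 7 and 8 of the heat population. None of the 80 passed the threshold (edgeR, adjusted p under 0.05, n = 2 and 2), beside 0.0251% of all genes tested. At an unadjusted p under 0.05, 1 was higher (background 1.3%) and 1 was lower (background 0.895%). DESeq2 and limma-voom called 0 of the 80 here too. The median log2 fold change was -0.05 with 34 of 80 above 0, beside -0.02 and 47.5% over all genes tested, whereas the median in the replicates that chose the genes was 0.53. The upper 95% bound lay under 1 log2 unit for 64 of the 80, a limit above that 0.53, so a change of that size is not excluded. This count too was not made over all genes tested. The heat libraries are the same in both comparisons, so these are not independent.

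**Figure D2:**
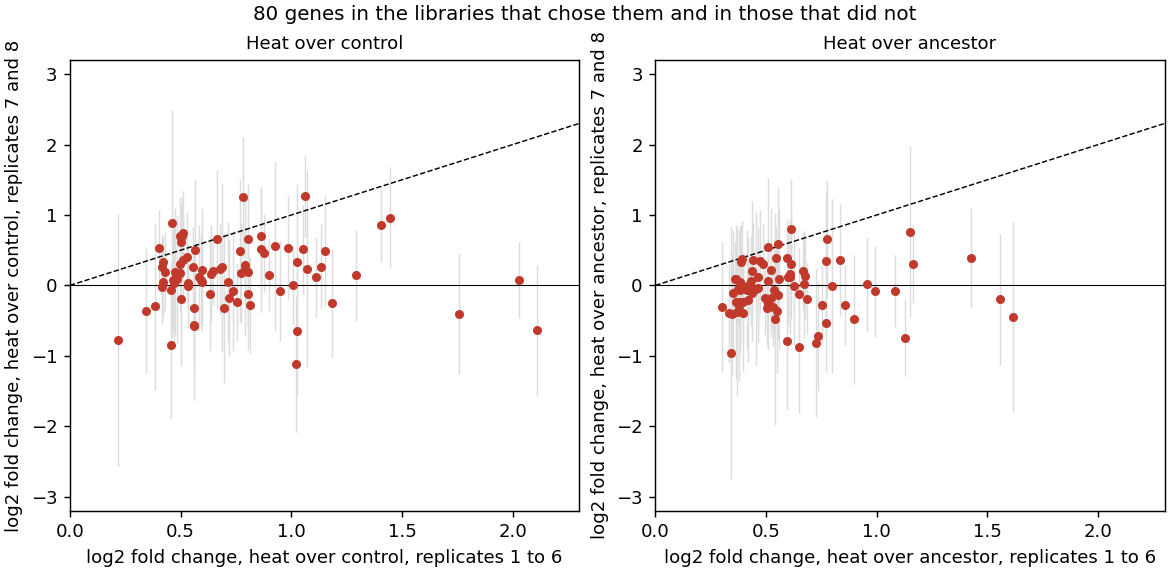
Log2 fold change of heat over control (left) and heat over ancestor (right) for the 80 genes, in the replicates that chose them (horizontal axis) and in replicates 7 and 8 (vertical axis, bars are 95% intervals, dashed line marks equal values). All 80 lie right of 0 by the choice; in replicates 7 and 8, 56 lie above 0 against control and 34 against the ancestor.

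Control larvae had lower values than ancestor larvae in most of these genes, with none past the threshold. The median log2 fold change of control over ancestor in replicates 7 and 8 was -0.22 with 22 of 80 above 0, beside -0.04 and 46.0% over all genes tested, and it was -0.12 without control replicate 7. None of the 80 passed the threshold (edgeR, adjusted p under 0.05, n = 2 and 2; background 0.0502%), nor with DESeq2 or limma-voom. At an unadjusted p under 0.05, 8 were lower in control larvae (background 2.13%) and 1 was higher (background 1.82%). The same control and ancestor libraries served in the heat comparisons above, so this comparison is not independent of those. In the replicates that chose the genes, the control mean was below the ancestor mean for 60 of the 80, beside 50.6% of all genes tested. Both means entered the score, so this count is a description and lends no weight to the values in replicates 7 and 8.

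Within the heat population, the mean of replicates 7 and 8 was below that of replicates 1 to 6 for 73 of the 80 genes (57.0% of all genes tested), with a median ratio of 0.617, beside 0.939 for all genes tested. A fall of this kind is partly built in, since high values in replicates 1 to 6 chose the genes. In 34 of the 80, heat replicates 7 and 8 both lay below all of heat replicates 1 to 6 (background 8.01%), and in 0 of the 80 both lay above them (background 9.4%). In plain CPM the heat counts were 51, beside 17.2% of all genes tested, and 0, beside 3.57%. The corresponding median ratio of replicates 7 and 8 over replicates 1 to 6 was 0.891 in the control population (0.923 over all genes tested) and 0.948 in the ancestor (0.985). Control replicates 7 and 8 lay below all of control 1 to 6 for 21 of the 80 (background 14.2%) and above them for 17 (background 16.6%). In plain CPM these counts were 37 (35.0% of all genes tested) and 4 (5.48%). Ancestor replicates 7 and 8 lay below ancestor 3 to 6 for 16 (background 9.11%) and above them for 8 (background 6.89%), and in plain CPM for 13 (12.7%) and 4 (5.92%).

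The labels do not say what sets replicates 7 and 8 apart. Heat replicates 7 and 8 held 8078381 and 9357212 gene counts, against 1406684 to 4306080 in heat replicates 1 to 6. Control replicates 7 and 8 held 15447168 and 10857578, more than control replicates 1 to 6, while ancestor replicates 7 and 8 held 6718320 and 15755610, the lower of which was below ancestor replicate 6 at 6887393. Over the whole series depth ran from 1406684 to 15755610 with a median of 4875498. Reads outside annotated genes made up 24.2% and 21.02% of all reads in heat replicates 7 and 8, against 14.2% and 17.0% in control and 11.7% and 10.6% in ancestor replicates 7 and 8, so both heat libraries lay above the other 4. They made up 22.9% to 39.1% in heat replicates 1 to 6, 15.1% to 19.8% in oxidative libraries, 13.3% to 22.7% in control replicates 1 to 6 and 15.3% to 22.5% in ancestor replicates 3 to 6. Unaligned reads made up 32.6% to 37.5% in oxidative libraries, 15.7% to 27.9% in heat, 16.7% to 33.5% in control and 18.2% to 35.0% in ancestor libraries. Heat replicates 1 to 6 thus lay above oxidative, control and ancestor libraries in the share outside genes, while oxidative libraries did not lie above control and ancestor ranges in it. With the share outside genes as a covariate, the median log2 fold change of heat over control in replicates 7 and 8 was 0.10, and with the unaligned share it was 0.14. Since both heat libraries lay above the other 4 in the share outside genes, that share and the population cannot be told apart in these libraries. The part of depth in the levels of the 80 was not tested.

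**Figure D3:**
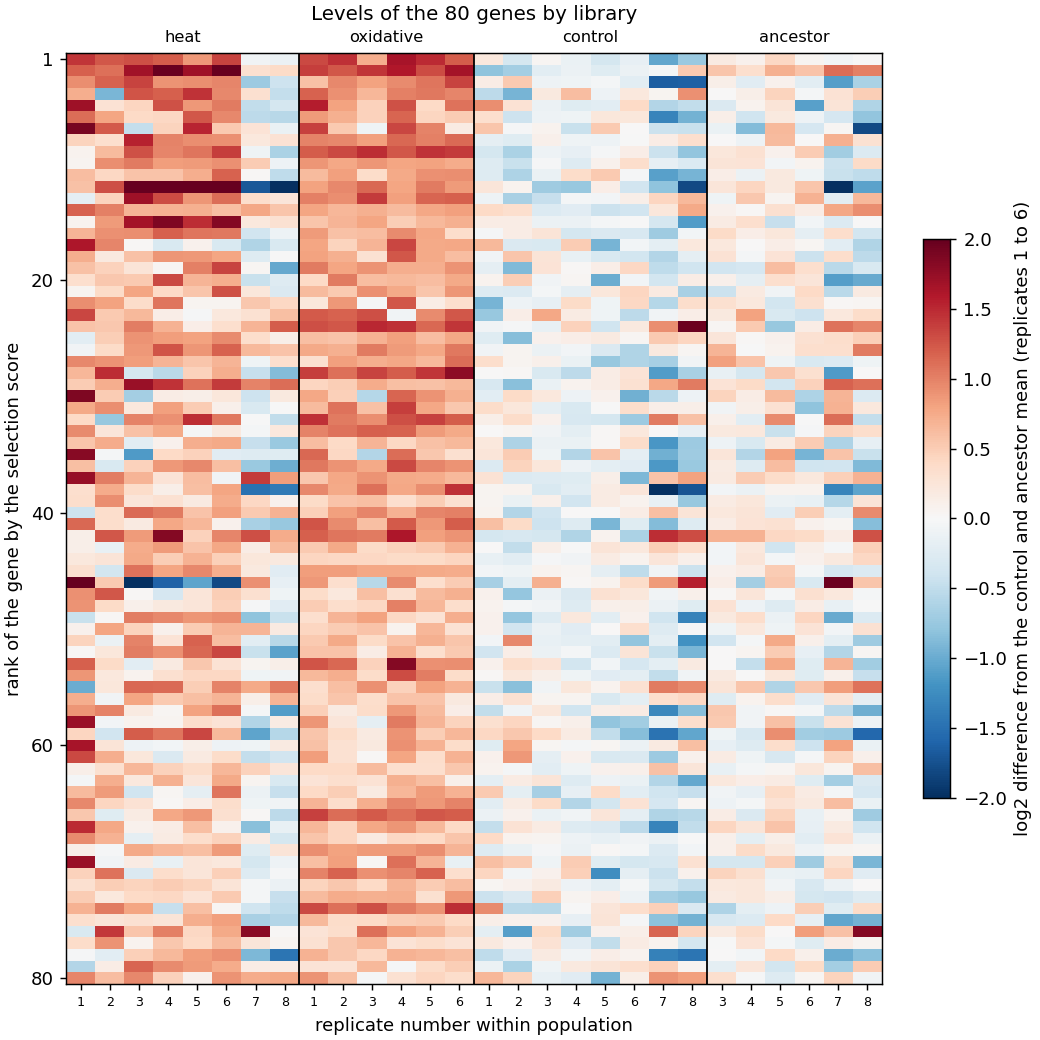
Levels of the 80 genes (rows, by rank of score) in 28 libraries (columns, by population and replicate number), as log2 difference from the mean of control and ancestor replicates 1 to 6, with 1 CPM added. Heat replicates 1 to 6 and all oxidative columns are mostly red; heat replicates 7 and 8 are not, with 38 and 32 of the 80 genes above the reference mean.

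The gene of highest score, FL81_02997, stood between 32.0 and 47.6 normalised CPM in heat replicates 1 to 6 (median 42.5) and between 28.8 and 55.5 in oxidative libraries (median 46.2). Control replicates 1 to 6 held 13.1 to 20.0 (median 15.3), and ancestor replicates 3 to 6 held 19.5, 18.2, 23.2 and 17.7. All 12 libraries of the selected populations lay above these 10. In plain CPM they did not, with oxidative replicate 3 at 26.9 and ancestor replicate 5 at 29.1. Replicates 7 and 8 held 16.21 and 15.6 in heat larvae, against 7.80 and 9.84 in control and 16.44 and 17.1 in ancestor larvae. Heat larvae were thus above control but not above the ancestor in libraries that had not chosen the gene. Its log2 fold change there was 0.85 over control (SE 0.26, edgeR unadjusted p = 0.0023, adjusted p = 0.735) and -0.07 over the ancestor (SE 0.25, edgeR unadjusted p = 0.766, adjusted p = 0.999).

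FL81_19582 had the largest oxidative difference from control among the 6 genes of highest score. It stood between 47.0 and 88.8 normalised CPM in heat replicates 1 to 6 (median 71.4) and between 52.1 and 69.9 in oxidative libraries (median 58.7). Control replicates 1 to 6 held 11.8 to 19.8 (median 18.2), and ancestor replicates 3 to 6 held 32.1, 27.4, 35.6 and 32.4. The ancestor thus lay between the control and the selected populations. Its values in replicates 7 and 8 were 27.0 and 28.3 in heat larvae, against 20.97 and 31.4 in control and 48.0 and 44.4 in ancestor larvae. Both heat values were below both ancestor values there, with a log2 fold change of -0.74 (95% interval -1.28 to -0.20, unadjusted p = 0.009, edgeR adjusted p = 0.999).

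FL81_14627 kept the largest lead over control in replicates 7 and 8. It stood between 25.4 and 35.1 normalised CPM in heat replicates 1 to 6 (median 26.4), between 20.2 and 35.2 in oxidative libraries (median 26.5) and between 11.2 and 19.4 in control replicates 1 to 6 (median 12.6), with 14.3, 11.1, 14.04 and 11.3 in ancestor replicates 3 to 6. Replicates 7 and 8 of every population lay below all these values, at 7.57 and 9.63 in heat, 3.53 and 3.59 in control and 5.63 and 8.13 in ancestor larvae. Both heat libraries exceeded both control libraries but overlapped with the ancestor. The log2 fold change over control was 1.27 (95% interval 0.69 to 1.86, edgeR unadjusted p = 0.000124, adjusted p = 0.246, the lowest among the 80), and over the ancestor it was 0.31 (95% interval -0.25 to 0.87).

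FL81_05863 was also higher in every heat and oxidative library of replicates 1 to 6 than in any control or ancestor library among them. In plain CPM this was not so, with heat replicate 3 at 11.4, oxidative replicate 3 at 13.0 and control replicate 1 at 14.7. It stood between 13.4 and 24.6 normalised CPM in heat replicates 1 to 6 (median 18.9), between 13.7 and 23.2 in oxidative libraries (median 15.6) and between 7.18 and 12.7 in control replicates 1 to 6 (median 10.4), with 10.8, 7.23, 11.4 and 9.12 in ancestor replicates 3 to 6. Replicates 7 and 8 held 6.51 and 6.38 in heat, 3.34 and 4.63 in control and 7.64 and 5.25 in ancestor larvae. Heat larvae thus again lay above control, here within the ancestor values.

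FL81_13494 and FL81_10698 were among the 6 highest scores without separating the libraries. FL81_13494 ranged from 3.81 to 23.7 normalised CPM in heat replicates 1 to 6 (median 18.2) and from 13.4 to 19.7 in oxidative libraries (median 17.1), against 3.80 to 12.9 in control replicates 1 to 6 (median 8.42) and 8.12, 8.90, 11.4 and 7.87 in ancestor replicates 3 to 6. Heat replicate 2, at 3.81, was as low as the lowest control library. FL81_13494 stood at 10.3 and 5.50 in heat replicates 7 and 8, 8.44 and 16.21 in control and 10.1 and 11.8 in ancestor larvae. FL81_10698 was the scarcest of these genes, at 2.54 to 8.38 normalised CPM in heat replicates 1 to 6 (median 4.59), which rested on 4 to 20 counts per library, and at 2.82 to 7.58 in oxidative libraries (median 4.57). Control replicates 1 to 6 held 1.44 to 4.49 (median 2.09) and ancestor replicates 3 to 6 held 1.35, 2.04, 2.46 and 0.358, the last from 2 counts, so its ranges overlapped.

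The 4 most abundant of the 80 differed from one another in how they moved among heat libraries. FL81_19519 stood between 227 and 570 normalised CPM in heat replicates 1 to 6 (median 441) and between 504 and 608 in oxidative libraries (median 559). Control replicates 1 to 6 held 140 to 238 (median 199), and ancestor replicates 3 to 6 held 254, 269, 230 and 310. Oxidative larvae were above all control and ancestor libraries, while heat replicate 1, at 227, was not. The later-numbered libraries, replicates 7 and 8, held 204 and 139 in heat, 160 and 125 in control and 134 and 179 in ancestor larvae, which overlap.

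FL81_05888 stood between 224 and 795 normalised CPM in heat replicates 1 to 6 (median 663), between 258 and 332 in oxidative libraries (median 281) and between 88.2 and 176 in control replicates 1 to 6 (median 135). Ancestor replicates 3 to 6 held 177, 202, 171 and 220. All 12 libraries of the selected populations exceeded these 10, yet in replicates 7 and 8 the gene stood at 45.4 and 36.4 in heat, 84.7 and 42.3 in control and 22.2 and 70.9 in ancestor larvae. It was thus lower in replicates 7 and 8 of every population than in any of the other libraries, and heat larvae did not lead there (log2 fold change over control -0.64, SE 0.45, edgeR adjusted p = 1).

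FL81_08036 stood between 225 and 523 normalised CPM in heat replicates 1 to 6 (median 376), between 213 and 262 in oxidative libraries (median 237) and between 87.4 and 195 in control replicates 1 to 6 (median 155), with 190, 206, 122 and 216 in ancestor replicates 3 to 6. Its level in replicates 7 and 8 was 315 and 343 in heat, 269 and 325 in control and 358 and 339 in ancestor larvae. In normalised CPM, control and ancestor replicates 7 and 8 were thus at the heat level, and above every oxidative library. This did not hold in plain CPM. There, replicates 7 and 8 held 188 and 259 in control and 370 and 262 in ancestor larvae. Oxidative libraries held 245 to 298 plain CPM, and heat replicates 1 to 6 held 293 to 444. FL81_01961 was similar in heat larvae, at 206 to 696 normalised CPM in replicates 1 to 6 (median 538) and 344 and 340 in replicates 7 and 8, with 304 to 487 in oxidative libraries. Its control values (198 to 390 in replicates 1 to 6, 424 and 319 in replicates 7 and 8) and ancestor values (239 to 402 in replicates 3 to 6, 192 and 440 in replicates 7 and 8) overlapped with these.

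**Figure D4:**
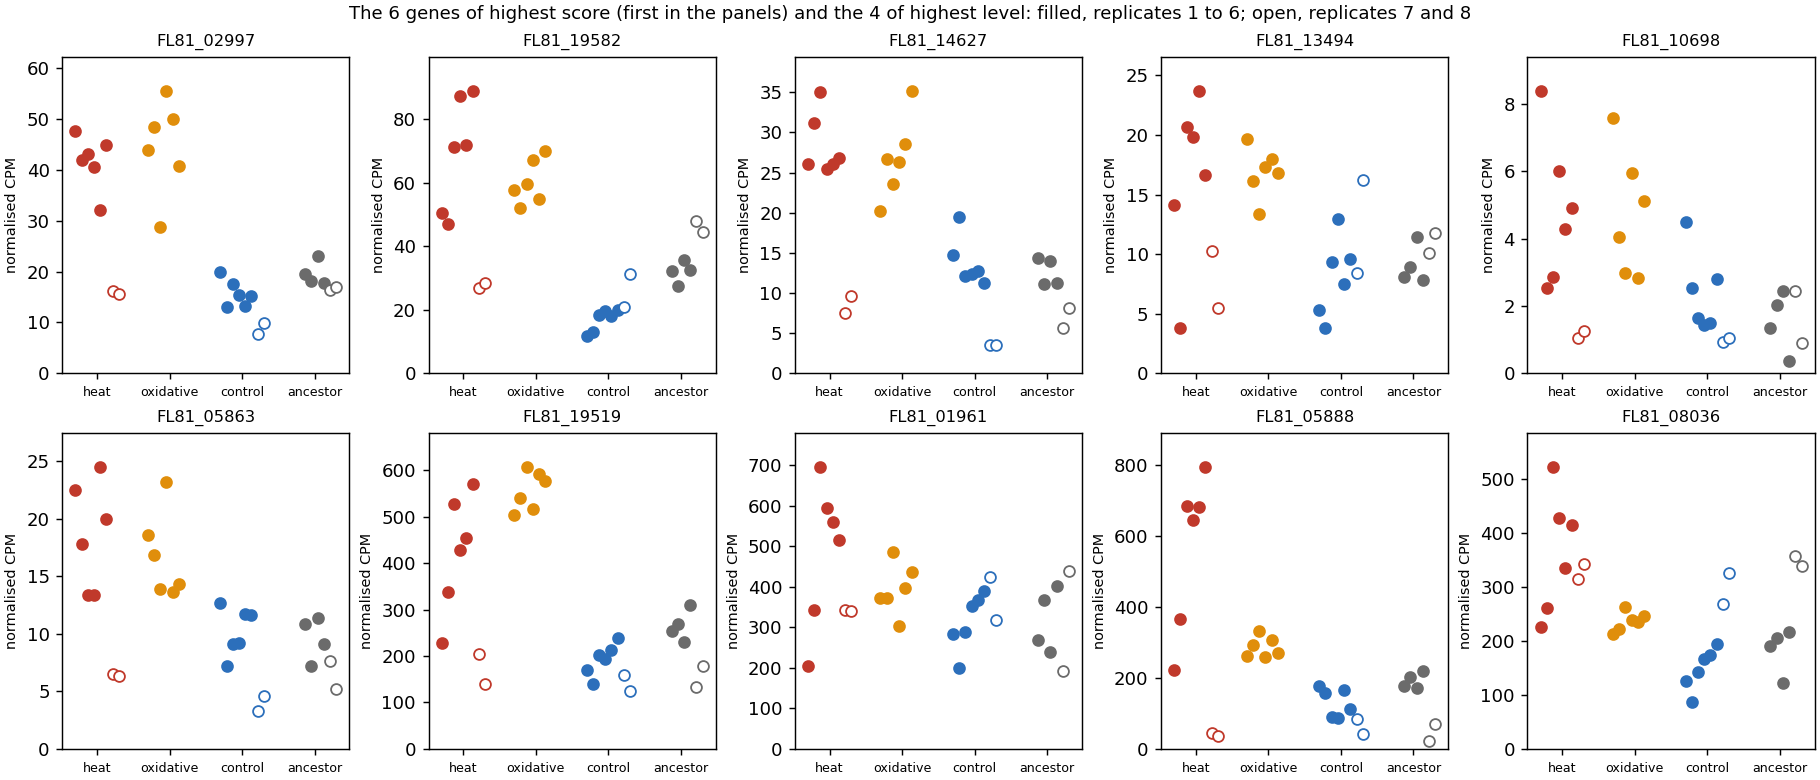
Normalised CPM of 10 genes in each library by population: the 6 of highest score, then the 4 of highest level in heat and oxidative larvae. Filled points are the libraries that chose the genes and open points replicates 7 and 8; for FL81_05888 the open heat points are at 45.4 and 36.4, and for FL81_08036 at 315 and 343.

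Besides FL81_14627, the genes with the largest log2 fold change of heat over control in replicates 7 and 8 were FL81_21413 (1.25, SE 0.41), FL81_24918 (0.96, SE 0.35) and FL81_10923 (0.88, SE 0.79), with edgeR adjusted p of 0.914, 1 and 1. FL81_21413 was at 3.18 and 1.88 normalised CPM in heat, 0.928 and 1.16 in control and 2.02 and 1.89 in ancestor larvae in these libraries, above control and overlapping with the ancestor. FL81_10923 was at 2.58 and 2.63 in heat, 1.21 and 1.62 in control and 5.34 and 2.13 in ancestor larvae, the same order against control. FL81_24918 stood at 38.8 and 41.4 normalised CPM in heat, 26.1 and 14.9 in control and 27.5 and 33.7 in ancestor larvae in these libraries. It is 1 of 4 genes, with FL81_12205, FL81_21709 and FL81_15113, in which heat replicates 7 and 8 exceeded all 4 control and ancestor libraries of these numbers, a share of the 80 near the background of 4.2%. FL81_15113 held 37.9 and 39.8 in heat, 33.7 and 30.9 in control and 28.8 and 30.6 in ancestor larvae. The naming of FL81_12205, FL81_21709 and FL81_15113 was decided with their values known.

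The smallest log2 fold changes of heat over control in replicates 7 and 8 belonged to FL81_00054 (-1.12, SE 0.47), FL81_08602 (-0.85, SE 0.52), FL81_05130 (-0.78, SE 0.87) and FL81_13494 (-0.64, SE 0.45), each with an edgeR adjusted p of 1. FL81_00054 was at 9.53 to 48.7 normalised CPM in heat replicates 1 to 6 (median 33.6), against 9.80 to 21.96 in control replicates 1 to 6 (median 15.6). It stood in replicates 7 and 8 at 16.8 and 11.8 in heat, 35.9 and 25.9 in control and 37.9 and 11.9 in ancestor larvae, so the order of heat and control was turned round. FL81_05130 was uneven among heat libraries. Heat replicate 1 held 225 normalised CPM, replicate 2 held 64.8, and replicates 3 to 6 held 8.29, 13.9, 20.9 and 12.1, below every control and ancestor library. Heat replicates 7 and 8 held 85.4 and 39.9, against 81.01 and 133 in control and 177 and 66.2 in ancestor larvae, which overlap. FL81_08602 was scarce, at 1.85 to 6.99 normalised CPM in heat replicates 1 to 6 (median 5.10) and 6.28 to 9.83 in oxidative libraries (median 7.98), against 1.65 to 6.53 in control replicates 1 to 6 (median 3.25) and 1.55, 2.41, 2.63 and 4.47 in ancestor replicates 3 to 6. Both heat values in replicates 7 and 8, 1.97 and 1.75, were below the control values of 4.45 and 2.20 and the ancestor values of 2.31 and 4.10.

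Few of the 80 genes separated every library. In normalised CPM all 6 oxidative libraries exceeded all 10 control and ancestor libraries used by the rule in 35 of the 80 (background 2.5%), and still exceeded all 14 with replicates 7 and 8 included in 25 (background 1.93%). All 6 heat libraries of replicates 1 to 6 exceeded the 10 in 9 (background 0.176%). All 12 did so in 7 genes, FL81_02997, FL81_19582, FL81_14627, FL81_05863, FL81_05888, FL81_21267 and FL81_04374 (background 0.0669%). In plain CPM this last count was 9 (0.159% of all genes tested), of which FL81_19582 and FL81_05888 were among the 7. These counts rest on the libraries that chose the genes and are a description. The naming of FL81_21267 and FL81_04374 was decided with their values known. FL81_21267 held 128 to 191 normalised CPM in heat replicates 1 to 6 and 130 to 148 in oxidative libraries, against 61.6 to 111 in control replicates 1 to 6 and 84.7 to 105 in ancestor replicates 3 to 6. Among replicates 7 and 8 it was 143 and 123 in heat, 98.1 and 142 in control and 143 and 161 in ancestor larvae, which overlap.

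The median coefficient of variation of the 80 genes was 30.8% in heat replicates 1 to 6, 14.9% in oxidative libraries, 22.9% in control replicates 1 to 6 and 20.97% in ancestor replicates 3 to 6. Over all genes tested it was 32.9%, 20.2%, 24.7% and 27.0% in the same order. The 80 had to average at least 5 CPM in heat and oxidative larvae, a limit not set for all genes tested. The part of level in these spreads was not tested. Heat over oxidative ran from 0.560 for FL81_13835 to 1.97 for FL81_05888 among the 80 (ratio of means in replicates 1 to 6, median 0.969), and the heat mean was the higher in 31. Heat replicates 3 to 6 over heat replicates 1 and 2 ran from 0.0952 for FL81_05130 to 2.38 for FL81_05888 in normalised CPM, with 40 of the 80 above 1, although the rule had held this ratio under 2 in plain CPM. Among the identifiers of the 80 there was 1 pair of consecutive numbers, FL81_01960 and FL81_01961. Names in this paragraph other than FL81_05130, FL81_05888 and FL81_01961 were chosen after their values were seen.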

How the data were processed

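Raw counts of 25337 gene identifiers were deposited for each library, with 5 summary lines for unassigned reads. The tools named are GSNAP and HTSeq, per the submitters' processing notes. No source used here gives the genome build, gene models or strandedness, so overlapping and near-identical genes are uncertain. The summary lines were left out of library sizes and tests. A level of 3 counts was 0.190 to 2.13 CPM.

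Genes were filtered with filterByExpr (minimum count 10, 11952 kept) and scaled by TMM in edgeR 4.0.16 (R 4.3.3). A quasi-likelihood model with 7 coefficients, each population split into replicates 1 to 6 and replicates 7 and 8, was fitted to all 28 libraries, and contrasts used only replicates 7 and 8. Benjamini-Hochberg adjustment ran over all genes tested. DESeq2 1.42.0, limma 3.58.1, other scalings, filters, covariates and left-out libraries were tried. The test was tried on simulated data. Standard errors and 95% intervals were derived from each fold change and the F value of its test.

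The genes, lists and comparisons were chosen with earlier results of these data known. Genes named were the 6 of highest score, the 4 of highest level, the 4 with the largest and the 4 with the smallest fold change of heat over control in replicates 7 and 8, and the 2 on either side of the border. Lists of named stress and tissue genes could not be looked up, since no identifier was paired with a name. Whether their genes were measured is therefore unknown.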

Additional observations from a re-analysis of the deposited data

Results flagged for a closer look

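The summed level and 17 named genes of the 80 were looked at in each of the 4 populations, 72 groups in all, for a library far from the others of its population (the gap to the nearest library as a share of the range, Dixon's criterion). Chance flags about 1 in 20 groups, and 4 values were found. FL81_05130 stood at 225 normalised CPM in heat replicate 1, with the next heat library at 85.4 and the lowest at 8.29. The same gene stood at 177 in ancestor replicate 7, with the next ancestor library at 66.2 and the lowest at 27.6. FL81_10923 stood at 14.1 in heat replicate 1, with the next heat library at 4.91 and the lowest at 0.956. FL81_19582 stood at 31.4 in control replicate 8, with the next control library at 20.97 and the lowest at 11.8.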

How the results depend on the processing

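In replicates 7 and 8, none of the 80 genes was called in any of the 3 comparisons under any of the 8 other settings or the 28 fits without 1 library; with so few libraries this count says little about stability. The median log2 fold change of heat over control (0.18) was 0.1011 when the outside-gene share of reads was a covariate, and 0.0689 to 0.1922 without 1 library, lowest without heat replicate 7 and 0.0757 without control replicate 7. Those of heat over ancestor and of control over ancestor were -0.0933 to 0.0103 and -0.2504 to -0.1187 without 1 library, and heat over ancestor was above 0 without ancestor replicate 7, ancestor replicate 8 or heat replicate 8. Genes above 0 numbered 45 to 56, 31 to 40 and 22 to 29 in these fits. All genes called in heat against control (1) numbered 9 with DESeq2, 10 with limma-voom, 3 without a filter or with the unaligned share, 0 with the 6 libraries alone or with the share outside genes, and 0 to 4 without 1 library, highest without heat replicate 1 or ancestor replicate 5. In heat against ancestor (3) they numbered 6 with DESeq2 and 1 to 4 without 1 library, lowest without heat replicate 7 or 8. In control against ancestor (6) they numbered 12 with DESeq2, 3 with limma-voom and 2 to 8 without 1 library, lowest without control replicate 7, and 3 without control replicate 1, control replicate 8 or ancestor replicate 8. With the replicate number as a replicate block the counts were 0, 4 and 5. Same-numbered libraries deviated together from their population means (correlation over 0.1) in 17 of 36 pairs, the lowest being -0.63. Replicates 7 and 8 stood alone in their sets, so each deviates as the mirror of the other and their pairs repeat the same value. Differently numbered pairs were not compared. The check therefore cannot decide whether the numbers are a pairing, and they were not taken as one. The membership itself moved: of the 80, 50 stayed with a limit of 20 CPM, 48 with all replicates in the means, 44 with medians, 62 with TMM-scaled CPM, and 49 to 78 without 1 library, lowest without heat replicate 1. The causes were not tested.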
